A study of Mus musculus with 8 samples.

Results

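A set of 10 genes of the immediate early response and its negative feedback were followed in whole pancreas of mice aged 3 weeks. They were chosen by symbol (Dusp1, Zfp36, Klf6, Btg2, Nfkbia, Gadd45b, Errfi1, Sgk1, Fos and Egr1), and every probe set annotated to 1 of these symbols was taken. All 10 genes were on the array, with 15 probe sets of the 12422 tested and 10 of the 8251 genes measured. No filter on low values was used, so all 15 probe sets are described. Dusp1, Zfp36, Klf6, Btg2 and Sgk1 had 1 probe set each and the other 5 genes had 2 each. The genes were picked with their log2 values in these 4 groups already known. Their values, differences and standard errors (SE) are therefore given as a description, with no p-value.

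The 8 arrays fell into 4 groups of 2. BDC2.5/NOD.scid mice carry the rearranged T cell receptor genes of a diabetogenic CD4 T cell clone on the NOD.scid background, and BDC2.5/NOD mice carry them on the NOD background. NOD.scid mice have the scid mutation of Prkdc, lack mature T and B lymphocytes and keep macrophages and other innate cells, and NOD is the inbred strain prone to autoimmune diabetes that all groups share. The transgenic receptor in both lines derives from that 1 clone. Each sample was a pool of 2 isolations with 6 animals in each. The labels do not say if a group had more than 1 pool, so every p-value reflects how far these arrays lie apart, and that spread may be technical.

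Immediate early genes are transcribed within minutes of a stimulus without new protein synthesis, mostly through SRF, CREB and NF-kB factors that are already in the cell. Some encode transcription factors (Fos, Egr1, Klf6). Others shut the response off again: Dusp1 dephosphorylates MAP kinases, Errfi1 inhibits the EGF receptor family, Nfkbia holds NF-kB in the cytoplasm, and Zfp36 (tristetraprolin) speeds the decay of mRNAs with AU-rich elements. Btg2 and Gadd45b act in growth arrest and stress signalling, and Sgk1 is a kinase induced by serum and glucocorticoids. In pancreas such genes are known to react to inflammation, acinar stress and tissue handling.

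The stretches around the annotated start sites were read from the RefSeq promoter table (GRCm38.p6), which holds 250 bases before to 50 bases after each start. The search covered 9 of the 10 genes, with 15 windows, and Egr1 was left out of it. Printed here are 7 windows of 300 bases, chosen because each holds a motif of a pathway that this gene set is known for. They run 5′ to 3′ on the gene's strand, and capitals mark any match to a searched motif on either strand.
Dusp1, chr17:26508423-26508722, minus strand: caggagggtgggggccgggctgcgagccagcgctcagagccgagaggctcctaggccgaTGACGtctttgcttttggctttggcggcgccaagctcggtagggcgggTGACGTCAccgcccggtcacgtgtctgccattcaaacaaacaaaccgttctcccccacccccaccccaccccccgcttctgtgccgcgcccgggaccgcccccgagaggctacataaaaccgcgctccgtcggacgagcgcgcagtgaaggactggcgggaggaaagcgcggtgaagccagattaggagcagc
Btg2, chr1:134079106-134079405, minus strand: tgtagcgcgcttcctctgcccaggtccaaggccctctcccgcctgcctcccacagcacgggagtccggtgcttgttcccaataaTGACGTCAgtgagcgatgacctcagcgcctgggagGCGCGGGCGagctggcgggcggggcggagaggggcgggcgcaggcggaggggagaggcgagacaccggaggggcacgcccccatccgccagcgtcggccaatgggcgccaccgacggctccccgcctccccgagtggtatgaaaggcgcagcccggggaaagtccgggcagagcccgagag
Errfi1, chr4:150854820-150855119, plus strand: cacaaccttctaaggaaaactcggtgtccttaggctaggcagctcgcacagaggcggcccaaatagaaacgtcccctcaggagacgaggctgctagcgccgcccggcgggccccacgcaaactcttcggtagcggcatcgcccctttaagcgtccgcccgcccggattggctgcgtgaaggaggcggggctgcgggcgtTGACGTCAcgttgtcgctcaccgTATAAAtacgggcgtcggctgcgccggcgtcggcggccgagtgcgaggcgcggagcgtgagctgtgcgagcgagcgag
Nfkbia, chr12:55492598-55492897, minus strand: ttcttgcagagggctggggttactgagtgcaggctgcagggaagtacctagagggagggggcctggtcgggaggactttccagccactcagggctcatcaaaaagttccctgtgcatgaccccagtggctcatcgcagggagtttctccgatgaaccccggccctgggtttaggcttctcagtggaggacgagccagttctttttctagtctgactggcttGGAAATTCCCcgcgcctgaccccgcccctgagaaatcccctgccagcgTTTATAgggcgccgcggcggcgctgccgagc
Fos, chr12:85473640-85473939, plus strand: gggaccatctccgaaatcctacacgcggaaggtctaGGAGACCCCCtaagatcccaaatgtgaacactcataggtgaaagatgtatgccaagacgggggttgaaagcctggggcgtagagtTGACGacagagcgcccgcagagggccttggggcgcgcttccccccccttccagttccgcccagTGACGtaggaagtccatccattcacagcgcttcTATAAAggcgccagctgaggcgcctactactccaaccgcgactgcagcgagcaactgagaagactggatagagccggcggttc
Zfp36, chr7:28379179-28379478, minus strand: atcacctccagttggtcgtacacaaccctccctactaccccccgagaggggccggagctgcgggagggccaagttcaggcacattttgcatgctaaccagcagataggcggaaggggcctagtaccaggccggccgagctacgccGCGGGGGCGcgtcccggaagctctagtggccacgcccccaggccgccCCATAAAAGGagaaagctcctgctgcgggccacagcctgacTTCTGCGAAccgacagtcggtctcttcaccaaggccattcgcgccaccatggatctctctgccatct
Sgk1, chr10:21993640-21993939, plus strand: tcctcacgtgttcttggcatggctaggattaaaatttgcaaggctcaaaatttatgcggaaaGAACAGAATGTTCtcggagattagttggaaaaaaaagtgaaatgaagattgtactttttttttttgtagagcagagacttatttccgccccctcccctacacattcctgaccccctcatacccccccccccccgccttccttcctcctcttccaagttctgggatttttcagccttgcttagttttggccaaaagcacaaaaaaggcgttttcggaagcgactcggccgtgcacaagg
The full CRE, TGACGTCA, which CREB binds, lay in the windows of Dusp1 (143 to 136 bases before the start), Btg2 (166 to 159 before) and Errfi1 (51 to 44 before). These were 3 of the 15 windows, where 1.79% of all 32851 windows of the table had a match. Its shorter form TGACG, which is part of every full CRE, was found in 5 windows, among them that of Fos, against 20.8% of all windows. A kappaB motif lay in the windows of Nfkbia (GGAAATTCCC, 29 to 20 bases before the start) and Fos, against 8.46% of all. The CArG box bound by SRF was matched only in the window of Zfp36 (CCATAAAAGG, 58 to 49 bases before), against 1.63% of all. The palindromic glucocorticoid element (GNACA, 3 bases of any kind, TGTNC) was matched only in the printed Sgk1 window (GAACAGAATGTTC, 188 to 176 bases before that start), against 0.475% of all, and Sgk1 had 6 annotated windows. The EGR motif GCGNGGGCG was found in 3 windows (5.55% of all), TTCNNNGAA for STAT factors in 2 (8.3% of all), TATAAA in 6 (13.6% of all) and the AP-1 motif TGANTCA in 0 (7.81% of all). A match is a run of letters and not a measured binding site, and no match concerns only these windows.

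**Figure D1:**
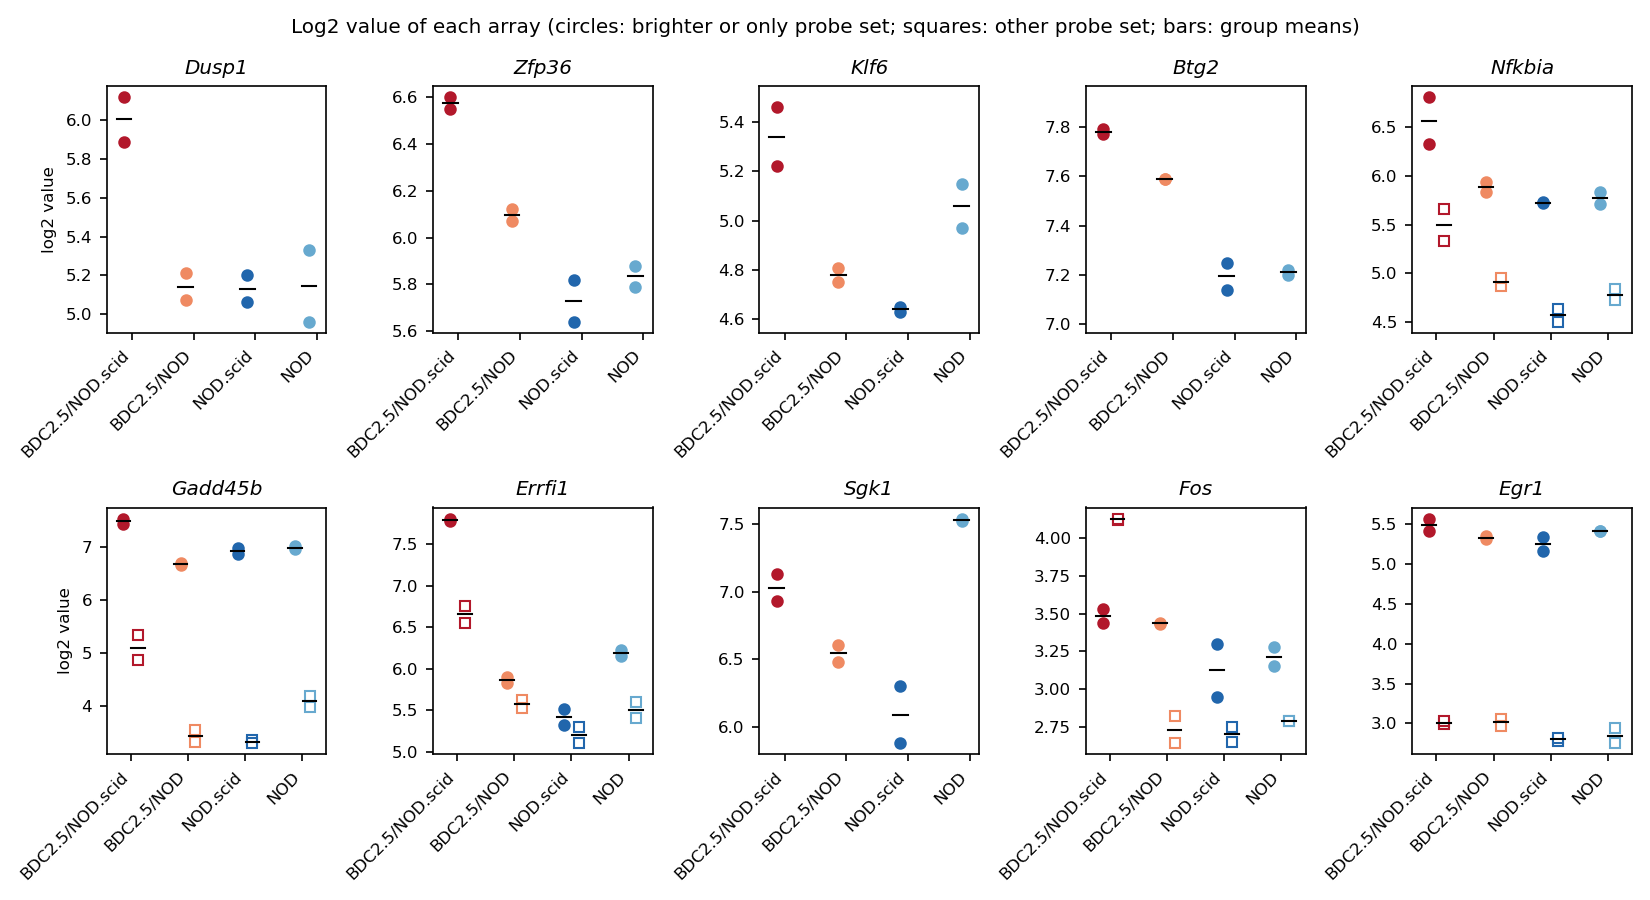
Log2 value (y axis) of the 10 genes on each array, by group (x axis); filled circles are the brighter or only probe set, open squares the other one, and bars the mean of 2 arrays. The y axes differ between panels and do not start at 0. Both BDC2.5/NOD.scid arrays lie above both NOD.scid arrays in all panels, and Sgk1 is highest in NOD.

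With the transgene on the NOD.scid background all 10 genes were higher. Reading each gene by its brighter probe set, the difference of mean log2 values between BDC2.5/NOD.scid and NOD.scid ran from 0.24 for Egr1 to 2.38 for Errfi1, with a median of 0.77, where the median over all tested probe sets was 0.0. The limma fit (Benjamini-Hochberg adjusted p under 0.05 over all 12422 probe sets) called 8 of the 10 higher, where it called 2.37% of all probe sets higher. Fos and Egr1 were not called on these probe sets. Both BDC2.5/NOD.scid arrays lay above both NOD.scid arrays for 10 of 10 genes and 15 of 15 probe sets, where 20.5% of all probe sets did so. These counts describe genes chosen for their values in this contrast.

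On the NOD background the picture was mixed. BDC2.5/NOD minus NOD ran from -0.99 for Sgk1 to 0.38 for Btg2, with a median of -0.04 against 0.03 over all probe sets, and 1 gene was called higher (Btg2; 3.91% of all probe sets) and 2 lower (Gadd45b and Sgk1; 4.06%). Leaving out either BDC2.5/NOD array or either NOD array left 1 gene called. NOD.scid minus NOD had a median of -0.10, and 0 genes were called higher (0.741% of all probe sets) and 2 lower (Errfi1 and Sgk1; 1.61%). BDC2.5/NOD.scid minus BDC2.5/NOD had a median of 0.53, with 7 genes called higher (2.99% of all probe sets) and Btg2, Fos and Egr1 not called. Without BDC2.5/NOD replicate 1, or without replicate 2, 3 genes were called there.

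Fos encodes a partner of the Jun proteins in the AP-1 transcription factor. Its probe set 160901_at read 4.12 and 4.13 in BDC2.5/NOD.scid, 2.64 and 2.82 in BDC2.5/NOD, 2.75 and 2.65 in NOD.scid, and 2.79 and 2.79 in NOD. Both BDC2.5/NOD.scid arrays stood above the other 6, among which both NOD.scid arrays lay just below both NOD arrays and BDC2.5/NOD overlapped each of these groups. The transgene difference was 1.43 (SE 0.0985) in NOD.scid and -0.06 (SE 0.0985) in NOD. The NOD.scid mean lay near the low end of the scale, above 7.18% of all probe sets, and with no detection calls used here it may not be above background, so no fold is given. The brighter probe set of Fos, 161716_at, did not show this step. It read 3.53 and 3.44 in BDC2.5/NOD.scid, 3.44 and 3.43 in BDC2.5/NOD, 2.95 and 3.30 in NOD.scid, and 3.15 and 3.28 in NOD. The transgenic arrays lay above the others by small amounts, with a transgene difference of 0.36 (SE 0.12) in NOD.scid and 0.21 (SE 0.12) in NOD. The probe sets of Fos therefore disagreed, and a value for the gene depends on which of them is read.

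Egr1 encodes a zinc finger transcription factor that SRF induces together with Fos. Its brighter probe set, 98579_at, read 5.41 and 5.57 in BDC2.5/NOD.scid, 5.35 and 5.31 in BDC2.5/NOD, 5.34 and 5.17 in NOD.scid, and 5.41 and 5.42 in NOD. The 4 groups lay close together, and BDC2.5/NOD.scid overlapped NOD. The difference with the transgene was 0.24 (SE 0.1) in NOD.scid and -0.08 (SE 0.1) in NOD. The dimmer probe set 161802_i_at spanned 2.75 to 3.06 over the 8 arrays, with a transgene difference of 0.21 (SE 0.0992) in NOD.scid and 0.16 (SE 0.0992) in NOD. Of the 10 genes, Egr1 had the narrowest range of group means on its brighter probe set, 0.24.

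Klf6 encodes a zinc finger factor of the Kruppel-like family that is induced by growth factors and injury. It read 5.46 and 5.22 in BDC2.5/NOD.scid, 4.75 and 4.81 in BDC2.5/NOD, 4.63 and 4.65 in NOD.scid, and 5.15 and 4.97 in NOD. All 4 groups stood apart, in the order BDC2.5/NOD.scid, NOD, BDC2.5/NOD and NOD.scid. On the log2 scale the transgene difference was 0.70 (SE 0.109) in NOD.scid, 1.62-fold, and -0.28 (SE 0.109) in NOD, of opposite sign. Without the transgene NOD.scid lay below NOD, with a difference of -0.42 (SE 0.109).

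Dusp1 encodes a nuclear phosphatase that switches off p38, JNK and ERK kinases. It read 5.89 and 6.12 in BDC2.5/NOD.scid, 5.07 and 5.21 in BDC2.5/NOD, 5.20 and 5.06 in NOD.scid, and 5.33 and 4.96 in NOD. BDC2.5/NOD.scid was the group that stood apart, and the other 3 overlapped. The transgene difference was 0.88 (SE 0.131) in NOD.scid, 1.84-fold, and -0.01 (SE 0.131) in NOD. With the transgene, BDC2.5/NOD.scid exceeded BDC2.5/NOD by 0.86 (SE 0.131).

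Errfi1 (Mig6) encodes an inhibitor of the EGF receptor family that is itself induced by receptor signalling and by stress. Its brighter probe set, 93975_at, read 7.78 and 7.81 in BDC2.5/NOD.scid, 5.83 and 5.90 in BDC2.5/NOD, 5.32 and 5.51 in NOD.scid, and 6.15 and 6.23 in NOD. The groups stood apart from each other, and the gap above the next group, NOD, was 1.61. The difference with the transgene was 2.38 (SE 0.0946) in NOD.scid, 5.20-fold, the widest of the 15 probe sets, and -0.33 (SE 0.0946) in NOD. Probe set 93974_at gave the same order at the top and bottom, with 6.76 and 6.55 in BDC2.5/NOD.scid, 5.62 and 5.53 in BDC2.5/NOD, 5.30 and 5.10 in NOD.scid, and 5.41 and 5.6 in NOD. There BDC2.5/NOD and NOD overlapped. Its transgene difference was 1.45 (SE 0.113) in NOD.scid and 0.07 (SE 0.113) in NOD, so the probe sets agreed in direction for the first and not for the second. Without the transgene, NOD.scid differed from NOD by -0.77 (SE 0.0946) on the brighter probe set and by -0.30 (SE 0.113) on the other.

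Nfkbia encodes IkappaB alpha, which binds NF-kB dimers and is resynthesised as a target of NF-kB. Probe set 101554_at read 6.81 and 6.33 in BDC2.5/NOD.scid, 5.94 and 5.83 in BDC2.5/NOD, 5.73 and 5.72 in NOD.scid, and 5.71 and 5.83 in NOD. Its BDC2.5/NOD.scid arrays differed from each other more than those of any other group, and still both lay above the other 6. On the log2 scale the transgene difference was 0.84 (SE 0.133) in NOD.scid, 1.79-fold, and 0.11 (SE 0.133) in NOD. Probe set 104149_at read 5.33 and 5.66 in BDC2.5/NOD.scid, 4.87 and 4.95 in BDC2.5/NOD, 4.63 and 4.50 in NOD.scid, and 4.84 and 4.72 in NOD. The replicate that was higher on the first probe set was lower on this one. Its transgene differences, 0.93 (SE 0.118) in NOD.scid and 0.13 (SE 0.118) in NOD, were of similar size to those of the first.

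Zfp36 read 6.55 and 6.60 in BDC2.5/NOD.scid, 6.12 and 6.07 in BDC2.5/NOD, 5.64 and 5.82 in NOD.scid, and 5.88 and 5.79 in NOD. Both transgenic groups stood above both groups without the transgene, and NOD.scid and NOD overlapped. The transgene difference was 0.84 (SE 0.0945) in NOD.scid, 1.79-fold, and 0.26 (SE 0.0945) in NOD. The suffix of its probe set (92830_s_at) marks probes that can be shared with other transcripts.

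Btg2, a cofactor of the deadenylase that shortens mRNA tails and a p53 target, varied least between replicates. It read 7.77 and 7.79 in BDC2.5/NOD.scid, 7.59 and 7.59 in BDC2.5/NOD, 7.25 and 7.14 in NOD.scid, and 7.20 and 7.22 in NOD. As for Zfp36, both transgenic groups stood above both others, which overlapped. The difference with the transgene was 0.58 (SE 0.0825) in NOD.scid and 0.38 (SE 0.0825) in NOD, 1.30-fold. The difference between these 2 effects was 0.20 (SE 0.117), the smallest among the 8 genes counted above as higher with the transgene in NOD.scid.

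Gadd45b binds stress kinase regulators and cell cycle proteins, and is a target of NF-kB and TGF-beta signals. Its brighter probe set, 102779_at, read 7.53 and 7.43 in BDC2.5/NOD.scid, 6.70 and 6.65 in BDC2.5/NOD, 6.97 and 6.87 in NOD.scid, and 7.01 and 6.96 in NOD. BDC2.5/NOD.scid was the highest group and BDC2.5/NOD the lowest, so the transgene difference was 0.56 (SE 0.0864) in NOD.scid and -0.31 (SE 0.0864) in NOD. Probe set 161666_f_at read 5.33 and 4.87 in BDC2.5/NOD.scid, 3.55 and 3.32 in BDC2.5/NOD, 3.36 and 3.30 in NOD.scid, and 3.99 and 4.19 in NOD. The directions were the same and the sizes larger, with transgene differences of 1.77 (SE 0.146) in NOD.scid and -0.65 (SE 0.146) in NOD. That probe set also placed NOD.scid below NOD, at -0.76 (SE 0.146), where the brighter one gave -0.07 (SE 0.0864). Its suffix marks probes that other transcripts can share.

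Sgk1 encodes a kinase that regulates ion channels and transporters through the ubiquitin ligase encoded by Nedd4l. It read 7.13 and 6.93 in BDC2.5/NOD.scid, 6.48 and 6.61 in BDC2.5/NOD, 6.30 and 5.88 in NOD.scid, and 7.52 and 7.54 in NOD. All 4 groups stood apart, and NOD was the highest, which was so for no other gene of the 10. On the log2 scale the transgene difference was 0.94 (SE 0.127) in NOD.scid, 1.92-fold, and -0.99 (SE 0.127) in NOD, 1.98-fold lower. Without the transgene, NOD.scid lay 2.71-fold below NOD (log2 difference -1.44, SE 0.127). With it, BDC2.5/NOD.scid was above BDC2.5/NOD by 0.49 (SE 0.127).

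**Figure D2:**
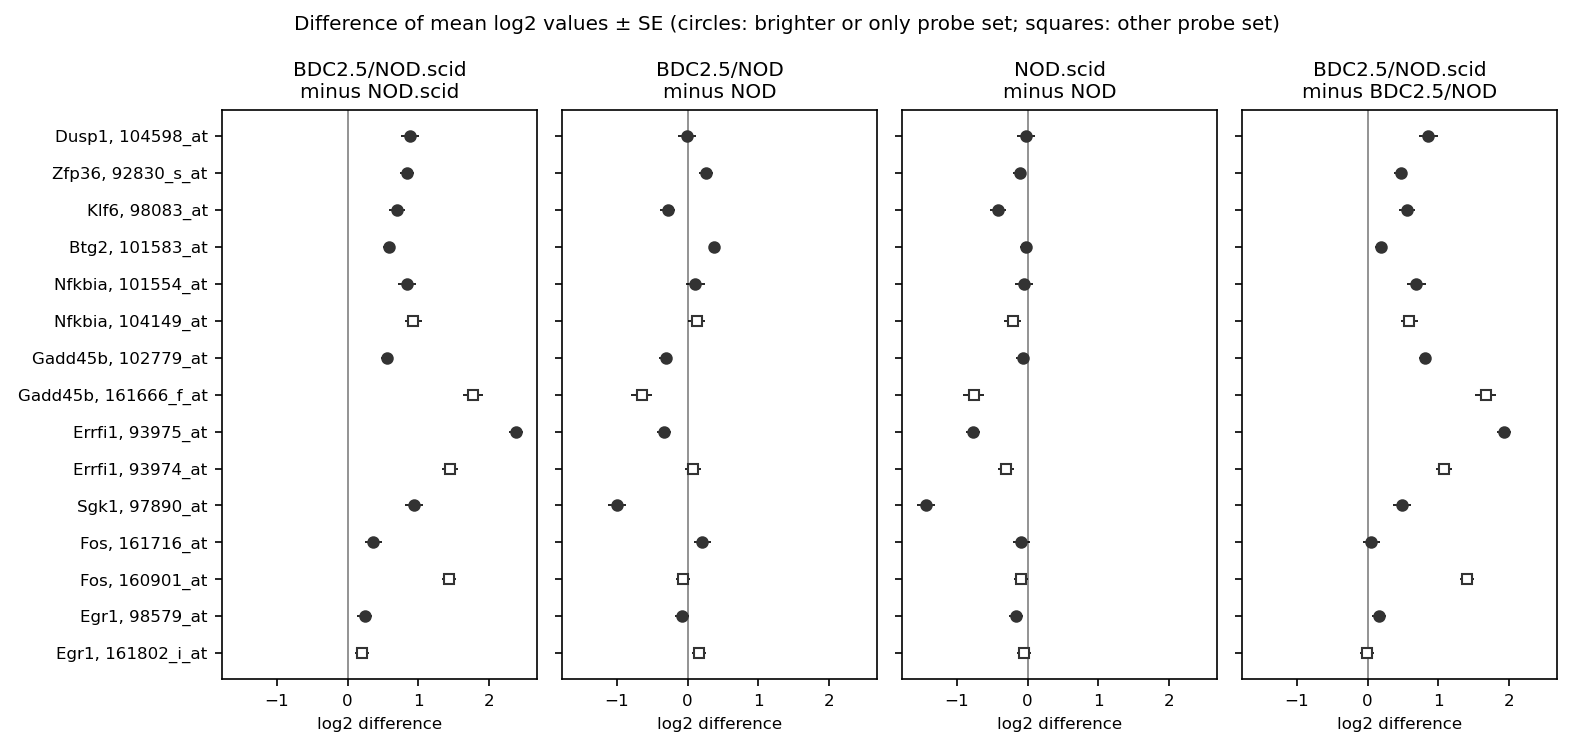
Difference of mean log2 values (x axis) for each probe set (rows) in 4 comparisons, with bars of 1 SE either side; circles are the brighter or only probe set of a gene and squares the other. All 15 points lie right of 0 for BDC2.5/NOD.scid minus NOD.scid, from 0.21 to 2.38, while those for BDC2.5/NOD minus NOD lie on both sides, from -0.99 to 0.38.

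The transgene difference was larger in NOD.scid than in NOD for all 10 genes. The gap between the 2 differences ran from 0.15 for Fos to 2.70 for Errfi1 on the brighter probe sets, with 7 of 10 genes called, all positive, where 2.22% of all probe sets were called in that direction. Btg2, Fos and Egr1 were not called. Leaving out NOD.scid replicate 1 turned the gap for Fos to -0.03. Without BDC2.5/NOD replicate 1, BDC2.5/NOD replicate 2 or NOD replicate 1, 4 genes were called. Sgk1 and Errfi1 had the widest gaps, 1.93 (SE 0.179) and 2.70 (SE 0.134). The comparisons share arrays: BDC2.5/NOD.scid enters both the transgene effect in NOD.scid and the scid effect with the transgene, so these are not separate observations.

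Some arrays, 3 of the 8, stood apart within their own groups. The middle probe set of the beta-actin control read 9.26 to 9.55 on BDC2.5/NOD.scid replicate 2, NOD.scid replicate 1 and NOD replicate 1, and 6.95 to 7.74 on the other 5. Within the low-actin pair (BDC2.5/NOD.scid replicate 1 minus NOD.scid replicate 2) all 15 probe sets had a positive difference, and within the high-actin pair likewise. Errfi1 differed by 2.27 and 2.49 in these pairs, Dusp1 by 0.83 and 0.92, and Fos (160901_at) by 1.47 and 1.39. Among the genes with 1 probe set the 2 pairs were farthest apart for Sgk1, with 1.25 in the low-actin pair and 0.63 in the high-actin pair. Nfkbia (101554_at) gave 1.09 and 0.60, and its other probe set 0.83 and 1.03. Both BDC2.5/NOD arrays were low in actin, so comparisons with that group have no high-actin pair. The BioB control probe sets averaged 7.02 and 7.06 on them, against 5.89 to 6.44 on the other arrays. NOD replicate 1 had the highest 3′ to 5′ signal ratios, 4.9 for actin and 2.43 for GAPDH. Elsewhere these were 3.15 to 4.14 and 1.66 to 1.86. The bearing of the BioB level on the values of the set was not tested.

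**Figure D3:**
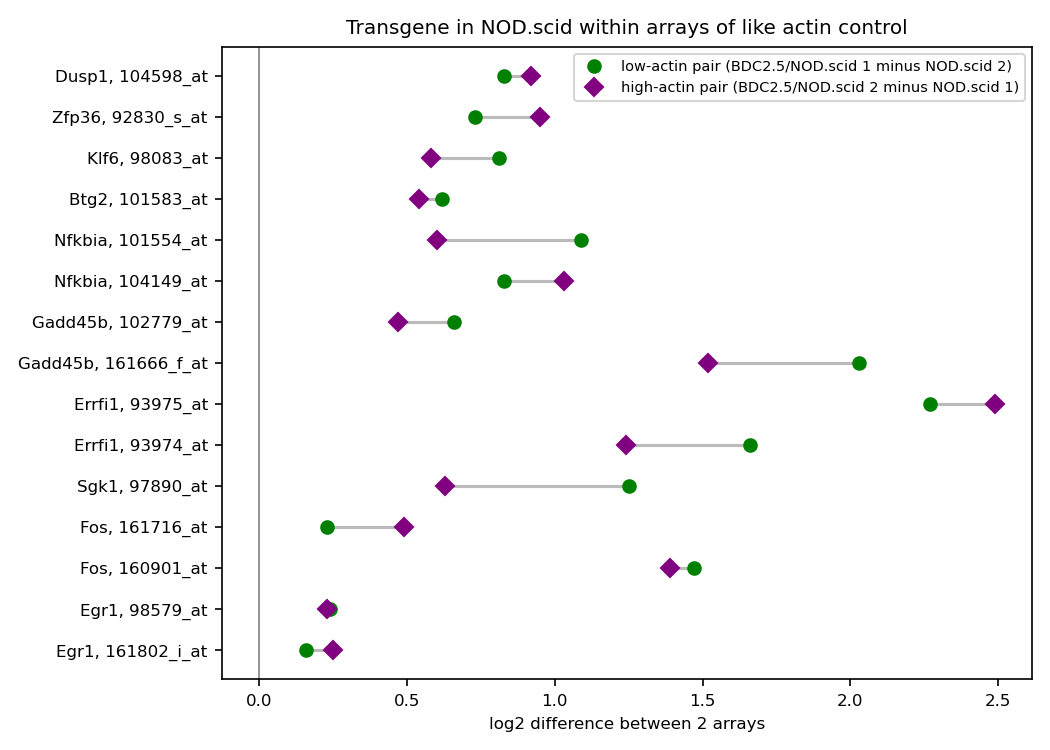
Log2 difference between 1 BDC2.5/NOD.scid array and 1 NOD.scid array (x axis) for each probe set (rows), within the pair of low actin control (circles) and the pair of high actin control (diamonds), joined by a line. All points lie right of 0, and Errfi1 on 93975_at is farthest in both pairs, at 2.27 and 2.49.

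The other immediate early transcription factors were read from a list of 26 measured genes that holds the relatives of Fos, Egr1 and Klf6. With the transgene in NOD.scid 4 of them rose and 1 fell, where 2.37% of all probe sets rose and 4.03% fell, with a median difference of 0.08 against 0.0 over all probe sets. The 1 that fell was Id3, named after its values were seen, and its call ended without any 1 of the BDC2.5/NOD.scid, BDC2.5/NOD or NOD.scid arrays. Klf10, a Kruppel-like factor induced by TGF-beta, rose by 1.11 (SE 0.105, limma adjusted p = 3e-05), with 6.38 and 6.36 in BDC2.5/NOD.scid, against 5.39 and 5.13 in NOD.scid. In NOD it fell by 0.75 (SE 0.105, limma adjusted p = 0.00104), with 4.56 and 4.68 in BDC2.5/NOD, against 5.38 and 5.36 in NOD. Its other probe set, 99602_at, gave 1.09 and -0.53 for these comparisons. Klf10 thus had opposite signs in the 2 backgrounds, as Klf6 and Sgk1 did. Of the other dimmer probe sets, named after their values were seen, Atf3 (104155_f_at) rose by 0.50 in NOD.scid (limma adjusted p = 0.0165). In NOD it rose by 0.40 (limma adjusted p = 0.0474). Another Atf3 probe set, 104156_r_at, differed by 0.24 and 0.15 and was not called. Cebpb, a factor of acute phase and macrophage genes, rose in NOD.scid by 1.26 (SE 0.128, limma adjusted p = 5.47e-05), and Cebpd by 0.85 (SE 0.154, limma adjusted p = 0.00481). On leaving out BDC2.5/NOD.scid replicate 2 the Cebpd call ended (limma adjusted p = 0.0618).

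The closest relatives of the 3 members among the transcription factors gave small differences with the transgene in NOD.scid. Jun, the usual partner of Fos, read 4.76 and 4.65 in BDC2.5/NOD.scid, against 4.62 and 4.71 in NOD.scid (difference 0.04, SE 0.0954, limma adjusted p = 0.901). Fosb differed by 0.04 (SE 0.101), Fosl1 by 0.12 (SE 0.105), Fosl2 by -0.12 (SE 0.105) and Egr2 by 0.12 (SE 0.103), and none of these passed the test. Klf2 and Klf4 differed by 0.02 (SE 0.0972) and 0.29 (SE 0.105), and did not pass either. Junb, a Jun protein that tempers growth, rose with the transgene in NOD by 0.51 (SE 0.118, limma adjusted p = 0.02). Leaving out any 1 of the BDC2.5/NOD or NOD arrays ended that call, at limma adjusted p = 0.0863 to 0.179. In NOD.scid Junb differed by 0.19 (SE 0.118, limma adjusted p = 0.457) on that probe set and by 0.50 (SE 0.12, limma adjusted p = 0.0264) on 102362_i_at. The latter also rose in NOD, by 0.64 (SE 0.12, limma adjusted p = 0.00611). Leaving out single arrays was read for the brighter probe set only.

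Of 21 measured immediate early effectors, 5 rose and 2 fell with the transgene in NOD.scid (2.37% and 4.03% of all probe sets), at a median of 0.19. Without the 3 arrays of high actin control 8 rose, and 5.49% of all probe sets did. Without BDC2.5/NOD.scid replicate 2, either BDC2.5/NOD array or either NOD.scid array, 1 fell. Ddit4, an inhibitor of mTOR signalling, rose by 1.96 (SE 0.0965, limma adjusted p = 5.98e-08), with 7.46 and 7.32 in BDC2.5/NOD.scid, against 5.35 and 5.51 in NOD.scid. It also rose in NOD by 0.79 (SE 0.0965, limma adjusted p = 0.000382). Gadd45g, a relative of Gadd45b, rose by 0.92 (SE 0.132, limma adjusted p = 0.00103) in NOD.scid, and Gadd45a differed there by -0.24 (SE 0.1, limma adjusted p = 0.224). Gadd45g was also called in NOD, at 0.53 (SE 0.132, limma adjusted p = 0.0282), a call that ended without any 1 of the BDC2.5/NOD or NOD arrays (limma adjusted p = 0.0552 to 0.199). Rgs2, which dampens G protein signals, rose by 0.72 (SE 0.103, limma adjusted p = 0.00103) and the clock gene Per1 by 0.56 (SE 0.0885, limma adjusted p = 0.00197) in NOD.scid. The list counts use the brightest probe set of each gene. Of the dimmer ones, named after their values were seen, Socs3 (162206_f_at) rose by 0.86 in NOD.scid (limma adjusted p = 0.00203). Cdkn1a (94881_at) rose by 0.64 there (limma adjusted p = 0.00173) and by 0.56 in NOD (limma adjusted p = 0.00433). Those of Pim1 and Tob1 were not called. Plk2, a stress-induced kinase, fell by 0.73 (SE 0.126, limma adjusted p = 0.00367) in NOD.scid. It was also called lower with the transgene in NOD (limma adjusted p = 0.0057). That call in NOD ended without either BDC2.5/NOD array or NOD replicate 1.

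Btg1, the closest relative of Btg2 and likewise antiproliferative, read 5.62 and 5.58 in BDC2.5/NOD.scid, 4.66 and 4.75 in BDC2.5/NOD, 5.6 and 5.20 in NOD.scid, and 5.77 and 5.56 in NOD. BDC2.5/NOD was the group that stood apart, and below the others. It fell with the transgene in NOD by 0.96 (SE 0.129, limma adjusted p = 0.000802) and differed by 0.20 (SE 0.129, limma adjusted p = 0.484) in NOD.scid.

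The pathways that Dusp1 and Errfi1 act in were read from lists of their other genes. Of 12 other MAP kinase and receptor feedback genes, 0 passed limma's test with the transgene in NOD.scid, where 2.37% of all probe sets rose and 4.03% fell. At an unadjusted p under 0.05 there were 3, and the median was 0.05. Once the fit held a term for actin 1 rose, where 481 of all 12422 probe sets did. Calls were also made without the arrays of high actin control. Dusp6, the phosphatase specific for ERK, differed by 0.03 (SE 0.131) there. Dusp8, which acts on JNK and p38, was the 1 gene of the list called with the transgene in NOD, where 3.91% of all probe sets rose. It rose there by 0.66 (SE 0.0993, limma adjusted p = 0.00161), and its other probe set, 92362_at, differed by 0.04 (limma adjusted p = 0.882). Of 19 upstream kinases, receptors and SRF factors, 0 passed limma's test in NOD.scid, with 4 at an unadjusted p under 0.05. There, 1 rose with the term for actin, and calls were also made without NOD.scid replicate 1 and without the arrays of high actin control. Egfr, a receptor that Errfi1 inhibits, read 4.94 and 4.97 in BDC2.5/NOD.scid, against 5.01 and 5.10 in NOD.scid (difference -0.10, SE 0.091). Erbb3, another receptor of that family, differed by 0.47 (SE 0.14, limma adjusted p = 0.0746), and by 0.06 (limma adjusted p = 0.843) on its other probe set, 101776_at. Mapk14, the p38 kinase that Dusp1 acts on, differed by 0.13 (SE 0.101).

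Among 30 other NF-kB factors, inhibitors and targets, 4 rose with the transgene in NOD.scid (2.37% of all probe sets), and 4 rose in NOD (3.91%). In NOD.scid 2 rose without BDC2.5/NOD.scid replicate 2 or without NOD.scid replicate 2, and 7 without the 3 arrays of high actin control, where 5.49% of all probe sets rose. In NOD no call remained without either BDC2.5/NOD array, 1 was made without NOD replicate 1, and 7 without the arrays of high actin control, where 7.73% of all probe sets rose. Psmb9, an immunoproteasome subunit, rose in NOD.scid by 1.19 (SE 0.117, limma adjusted p = 4.5e-05) and Nfkbiz, a nuclear relative of Nfkbia, by 0.94 (SE 0.134, limma adjusted p = 0.000999). The other probe set of Nfkbiz, 161903_f_at, differed by 0.18 (limma adjusted p = 0.528). The other IkappaB genes Nfkbib and Nfkbie differed by 0.09 (SE 0.106) and -0.10 (SE 0.108), and Rela, a subunit that IkappaB alpha binds, by 0.41 (SE 0.114, limma adjusted p = 0.0545) on 1 probe set and -0.14 (limma adjusted p = 0.52) on the other, 162042_i_at. Tnf and Il6, cytokine genes that stimulate or follow this pathway, differed by -0.06 (SE 0.126) and 0.08 (SE 0.114). Of the dimmer probe sets, which the counts leave out, only those of Vcam1 were called in NOD.scid, and it was named after its values were seen. They rose by 0.83 (92558_at, limma adjusted p = 0.0038) and 0.62 (92559_at, limma adjusted p = 0.0132), and differed by -0.08 and 0.04 in NOD. In NOD 162042_i_at of Rela rose by 0.47 (limma adjusted p = 0.00826), and no other dimmer one was called. Relb rose in NOD by 0.50 (SE 0.093, limma adjusted p = 0.00571), and lost the call without BDC2.5/NOD replicate 1 (limma adjusted p = 0.0709) or replicate 2 (limma adjusted p = 0.0686). Its other probe set, 162372_f_at, differed by 0.11 in NOD (limma adjusted p = 0.629).

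Of 15 measured genes for AU-rich element binding proteins and their targets, the setting of Zfp36, 1 rose and 1 fell with the transgene in NOD.scid, where 2.37% of all probe sets rose and 4.03% fell. Elavl1, which fell and was named after its values were seen, was not called on leaving out BDC2.5/NOD.scid replicate 2, either BDC2.5/NOD array or either NOD.scid array. The 1 that rose was Zfp36l2, a relative of Zfp36, with a difference of 0.40 (SE 0.0998, limma adjusted p = 0.0305). This call was lost on leaving out either BDC2.5/NOD.scid array, either BDC2.5/NOD array or NOD.scid replicate 2 (limma adjusted p = 0.0686 to 0.195), and the gene's other 2 probe sets differed by 0.00 and -0.05. Zfp36l1 differed by 0.61 (SE 0.274, limma adjusted p = 0.269), with replicates far apart.

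Genes known to respond to glucocorticoids in some tissues were listed because Sgk1, Dusp1, Nfkbia, Zfp36 and Errfi1 are themselves known to do so. The list includes the receptor gene Nr3c1. As for the other lists, earlier results of these data were known when this list was chosen. Its counts are therefore a description. The list shares Cebpb, Cebpd, Ddit4, Per1 and Klf9 with the immediate early lists above. The rises of Cebpb, Cebpd, Ddit4 and Per1 in NOD.scid are therefore counted in both. Of the 18 glucocorticoid-responsive genes measured outside the set, 9 rose and 1 fell with the transgene in NOD.scid (median 0.58), and 1 rose and 5 fell in NOD (median -0.06). With 1 array left out in turn, 7 to 9 rose in NOD.scid. In NOD, 2 fell without BDC2.5/NOD replicate 1 or replicate 2 and 3 fell without NOD replicate 1. Across all probe sets 2.37% rose and 4.03% fell in NOD.scid, and 3.91% rose and 4.06% fell in NOD. The list counts use the brightest probe set of each gene. Of the dimmer ones, named after their values were seen, Zbtb16 (92202_g_at) rose in both backgrounds. It differed by 2.26 in NOD.scid (limma adjusted p = 2.41e-06) and 1.93 in NOD (limma adjusted p = 1.92e-05). Glul (94852_at) differed by 1.31 and -0.19, Lcn2 (160564_at) by 1.38 and 0.21, and Klf9 (93527_at) by 0.29 and -0.04.

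Pdk4, a kinase that spares glucose by inhibiting pyruvate dehydrogenase, rose by 2.32 (SE 0.106, limma adjusted p = 2.87e-08) in NOD.scid. It read 7.11 and 7.01 in BDC2.5/NOD.scid, 4.66 and 4.41 in BDC2.5/NOD, 4.68 and 4.79 in NOD.scid, and 5.16 and 5.17 in NOD. In NOD it fell by 0.63 (SE 0.106, limma adjusted p = 0.00319), a call lost without BDC2.5/NOD replicate 2 (limma adjusted p = 0.0621). The metallothioneins Mt1 and Mt2, which bind zinc, rose in NOD.scid by 1.53 (SE 0.084, limma adjusted p = 1.7e-07) and 1.42 (SE 0.0839, limma adjusted p = 3.68e-07). Mt1 read 11.34 and 11.20 in BDC2.5/NOD.scid, 9.88 and 9.77 in BDC2.5/NOD, 9.70 and 9.78 in NOD.scid, and 10.44 and 10.38 in NOD. The order of the groups for Mt1, with BDC2.5/NOD.scid highest and NOD next, was also that of Errfi1 and Klf6. In NOD Mt1 fell by 0.58 (SE 0.084, limma adjusted p = 0.00122). Fkbp5, a chaperone of the glucocorticoid receptor, was named after its values were seen; it rose in NOD.scid by 1.31 (SE 0.0999, limma adjusted p = 4.11e-06). Tsc22d3 (GILZ), another target of the receptor, differed by 0.33 (SE 0.107, limma adjusted p = 0.108), and the receptor gene Nr3c1 by -0.25 (SE 0.142, limma adjusted p = 0.414). No hormone was measured here.

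**Figure D4:**
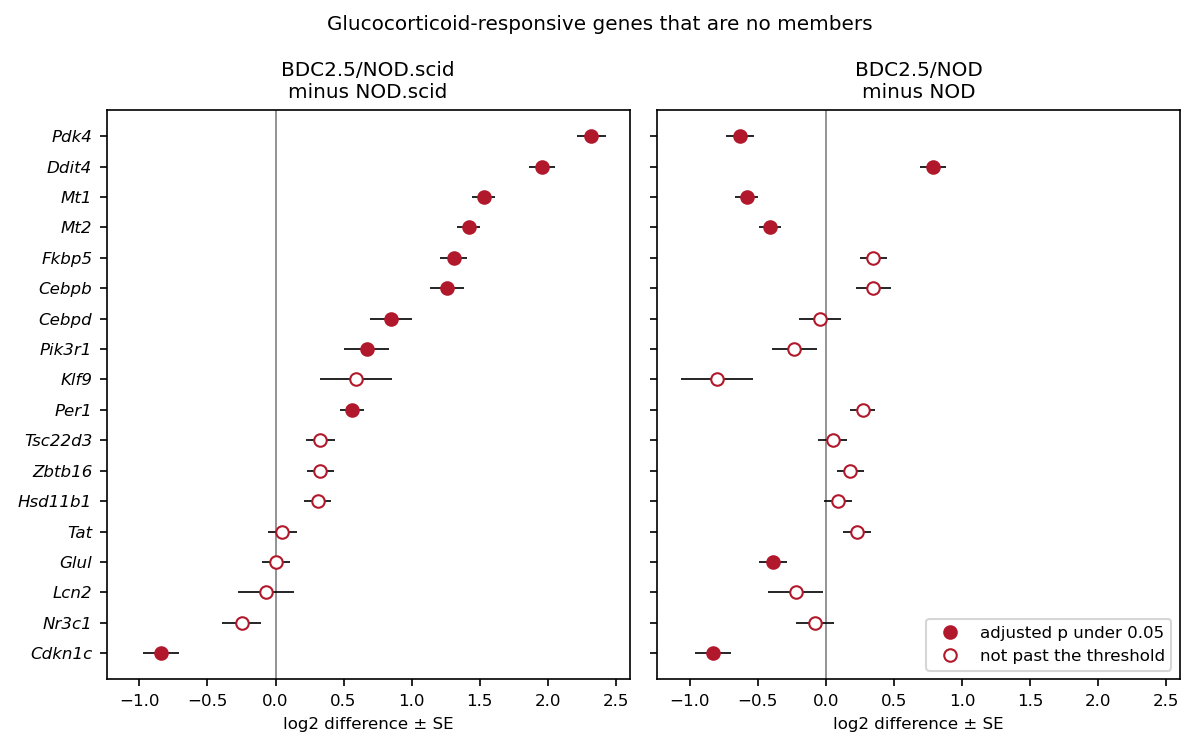
Log2 difference with the transgene (x axis, bars of 1 SE either side) for the 18 glucocorticoid-responsive genes outside the set (rows), in NOD.scid (left) and in NOD (right); filled points passed limma's adjusted p of 0.05. In NOD.scid 9 genes lie right of 0 with filled points and 1 lies left, against 1 and 5 in NOD.

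Handling of tissue can raise immediate early and heat shock genes alike, so 11 heat shock genes were read beside the set. With the transgene in NOD.scid limma called 0 higher (1 at an unadjusted p under 0.05) and 1 lower, where 2.37% of all probe sets rose and 4.03% fell; without either NOD array, 1 was called higher. The lower call ended on leaving out BDC2.5/NOD.scid replicate 2 or NOD.scid replicate 1. In NOD 3 rose, where 3.91% of all probe sets did, and 6 without the 3 arrays of high actin control, where 7.73% did. Hsph1, a chaperone of the HSP110 family, read 4.43 and 4.24 in BDC2.5/NOD.scid, 6.17 and 6.36 in BDC2.5/NOD, 4.27 and 4.52 in NOD.scid, and 4.67 and 4.8 in NOD. It stood out in BDC2.5/NOD. It rose with the transgene in NOD by 1.52 (SE 0.119, limma adjusted p = 9.89e-06), as did Bag3, a cochaperone, by 0.89 (SE 0.105, limma adjusted p = 0.000297). How the tissue was handled was not tested.

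Other genes with a pattern like that of the set were found by the smallest root mean square difference of the 8 log2 values, each gene centred on its own mean. This was done for the 4 genes with the widest range of group means, and it describes 8 arrays in 4 groups. Nearest to Errfi1 were H2-Eb1 (0.272), Pdk4 (0.274) and Sesn1 (0.287). Nearest to Sgk1 were Adk (0.283), Rab9 (0.3) and Acadm (0.304). Nearest to Dusp1 were Cxcl9 (0.0988), Lgals3 (0.123) and AW112010 (0.135), and nearest to Nfkbia were Slc10a6 (0.104), Rgs2 (0.109) and Marco (0.113). H2-Eb1 read 8.11 and 8.22 in BDC2.5/NOD.scid, and the other 6 arrays spanned 6.08 to 6.21. Cxcl9 read 3.63 and 4.03 in BDC2.5/NOD.scid, with the other 6 arrays at 2.79 to 3.15. Adk shared with Sgk1 the highest values in NOD, at 7.62 and 7.69, and the lowest in NOD.scid, at 6.56 and 6.55.

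Markers of other cell types moved in the same comparison as the set. The mean log2 value over 12 macrophage and monocyte markers was 5.73 and 5.62 in BDC2.5/NOD.scid, 4.84 and 4.78 in BDC2.5/NOD, 4.87 and 4.96 in NOD.scid, and 4.73 and 4.89 in NOD. With the transgene in NOD.scid 7 of the 12 rose, where 2.37% of all probe sets did, and in NOD limma called 0 of the 12 (1 at an unadjusted p under 0.05). Without the arrays of high actin control 6 rose in NOD.scid and 2 fell in NOD. The 9 T cell markers averaged 4.89 and 4.90 in BDC2.5/NOD.scid, 4.82 and 4.88 in BDC2.5/NOD, 4.77 and 4.83 in NOD.scid, and 4.82 and 4.74 in NOD, and limma called 0 of the 9 in any of the 4 comparisons of groups. At an unadjusted p under 0.05, 2 of them were higher with the transgene in NOD.scid, and 1 was called there without BDC2.5/NOD.scid replicate 1. Acinar markers, which define the labelled tissue, averaged 12.76 to 12.87 on the 8 arrays. The 8 islet markers, of which 5 fell with the transgene in NOD.scid (4.03% of all probe sets) and 4 in NOD (4.06%), averaged 5.57 and 5.37 in BDC2.5/NOD.scid, 5.67 and 5.69 in BDC2.5/NOD, 6.32 and 6.35 in NOD.scid, and 6.15 and 6.28 in NOD. The 8 fibroblast and mesothelium markers averaged 6.04 and 5.93 in BDC2.5/NOD.scid, 5.71 and 5.70 in BDC2.5/NOD, 6.32 and 6.29 in NOD.scid, and 6.33 and 6.39 in NOD. Of these, 4 fell with the transgene in NOD.scid (2 without BDC2.5/NOD.scid replicate 2 or without NOD.scid replicate 2) and 6 in NOD (4 without either BDC2.5/NOD array or without NOD replicate 2). The 9 neutrophil markers stood out in NOD.scid, at 5.63 and 5.63, against 4.62 to 4.88 on the other arrays, and the 6 erythrocyte markers likewise, at 6.73 and 6.72, against 5.46 to 5.78. The part of these cells in the values of the set was not tested, and in whole tissue more cells of a type and more RNA per cell cannot be told apart.

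**Figure D5:**
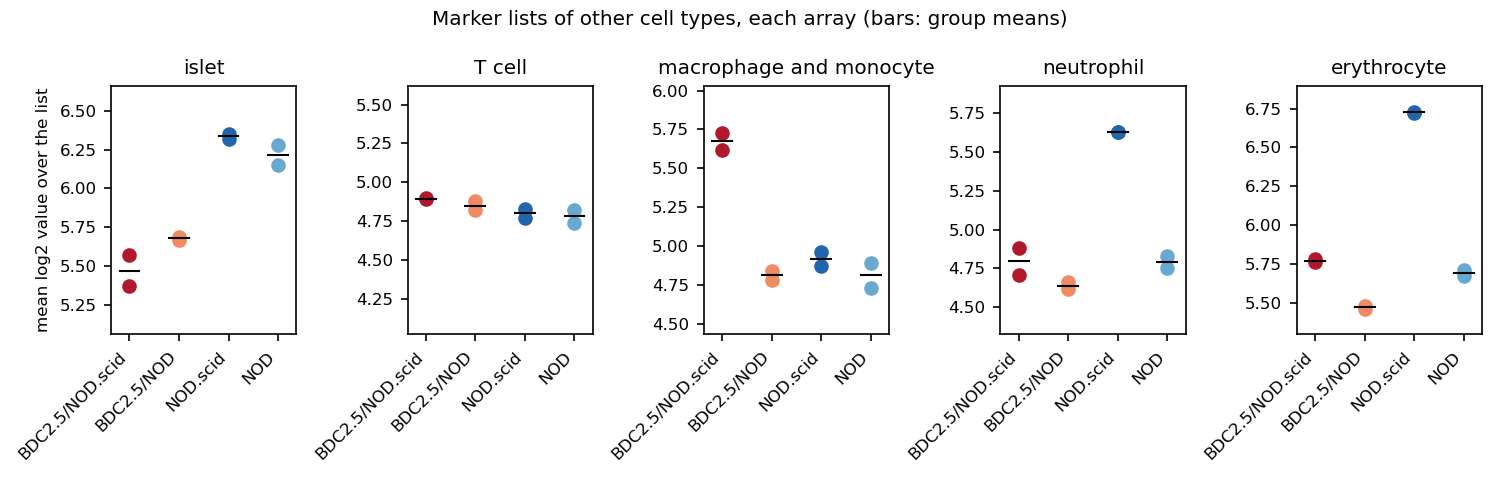
Mean log2 value over each of 5 lists of cell markers (y axis) on each array, by group (x axis); points are arrays and bars group means, and the y axes cover equal spans with different origins. The macrophage and monocyte list is highest in BDC2.5/NOD.scid, at 5.73 and 5.62, and the T cell list spans 4.74 to 4.90 over all arrays.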

How the data were processed

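Per the labels' protocols, pancreas RNA was extracted with guanidine isothiocyanate, and Affymetrix targets were made from roughly 10 ug. The deposited values are on a log scale taken as log2, since they reach 13.78; how the authors corrected background, normalized and summarised probes is not given in the sources. Each array held 12488 probe sets, of which 66 were controls and 12422 were tested. Array medians lay at 4.24 to 4.30, so the deposited log2 values were not rescaled. GEO's platform annotation named 1 gene for 10833 tested probe sets, more than 1 for 396 and no gene for 1193. Of these, 10817 matched GRCm38.p6 by gene ID and 0 symbols changed. RefSeq promoter windows were searched by letter.

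limma 3.58.1 (R 4.3.3) fitted a mean per group over the 8 arrays, with a variance trend, 4 residual degrees of freedom and a prior of 8.07; two-sided tests were adjusted over 12422 probe sets (Benjamini-Hochberg, 0.05). All differences are of mean log2 values; pandas 2.3.3 and matplotlib 3.10.9 were used for tables and plots. The number of arrays limits the precision. A gene was read by its probe set of 1 symbol with the highest mean, and probe set levels were not set against each other. In 5 simulations of BDC2.5/NOD.scid against NOD.scid over 12422 probe sets with 200 changed, the fit found 76% of changes of 0.5 and 100% of those of 1, 2 or 3, and 7.38% of calls were false.

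The members and lists were chosen with earlier results of these data known. All probe sets of the 10 symbols are reported. From each list at most 4 genes with the smallest adjusted p in a described comparison were named, beside relatives, partners and regulators of a member, and 3 genes of like pattern for each of 4 members. A few further genes, marked in the text, were named after their values were seen. In each group the array with a number in its title served as replicate 1 and the other as replicate 2. Same-numbered arrays deviated from their group means together at correlations of -0.32 to 0.29. These do not settle if the numbers pair the arrays, and no pairing was assumed in the main fit. The alternatives tried were quantile normalization, centred medians, a filter on dim probe sets, no variance trend, only the groups compared, a block for the title number, array weights, a threshold of 0.01, a term for the actin control, every probe set of a gene and each array left out. Leaving out the 3 arrays of high actin control was added after seeing the data. Floors on linear values did not apply.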

Additional observations from a re-analysis of the deposited data

Results flagged for a closer look

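These results had a transgene difference in NOD.scid that differed from that in NOD, by a test of the difference itself (the interaction in the limma fit). For the genes of the set, which were chosen with these values known, the gap is given with no p. It was 2.70 for Errfi1 on probe set 93975_at (2.38 in NOD.scid and -0.33 in NOD) and 1.38 on 93974_at. Gadd45b had a gap of 2.43 on 161666_f_at (1.77 and -0.65) and 0.87 on 102779_at. Sgk1 had 1.93, with 0.94 in NOD.scid and -0.99 in NOD, and Fos had 1.49 on 160901_at. The gap was 0.98 for Klf6, 0.88 for Dusp1, 0.73 and 0.80 for the probe sets of Nfkbia, and 0.58 for Zfp36. At a threshold of 0.01 Dusp1, Nfkbia (101554_at) and Zfp36 were not called. Leaving out any 1 array but BDC2.5/NOD.scid replicate 2 ended the call for Nfkbia (101554_at), and any but NOD.scid replicate 2 that for Zfp36. For Dusp1 it ended without BDC2.5/NOD.scid replicate 2, either BDC2.5/NOD array, NOD.scid replicate 2 or NOD replicate 1.

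Outside the set, the gap was 2.95 for Pdk4 (limma adjusted p = 3.87e-07), 2.12 for Mt1 (limma adjusted p = 6.08e-07) and 1.83 for Mt2 (limma adjusted p = 1.86e-06), with positive differences in NOD.scid and negative ones in NOD. Klf10 had 1.86 (limma adjusted p = 1.48e-05), Zfp36l2 0.85 (limma adjusted p = 0.00473) and Btg1 1.16 (limma adjusted p = 0.00319). The gap of Zfp36l2 rests on 1 probe set. Its others gave -0.23 (93943_f_at, limma adjusted p = 0.527) and -0.06 (93944_r_at, limma adjusted p = 0.861). The other probe set of Klf10, 99602_at, gave 1.62 (limma adjusted p = 0.000718). For Ddit4 the difference was called higher in both backgrounds and was larger in NOD.scid, by 1.17 (limma adjusted p = 0.000318). The gap was 0.96 for Fkbp5 (limma adjusted p = 0.00205), 1.14 for Psmb9 (limma adjusted p = 0.00185), 0.91 for Cebpb (limma adjusted p = 0.0128) and 0.63 for Rgs2 (limma adjusted p = 0.0276). In NOD the differences of Fkbp5, Psmb9, Cebpb and Rgs2 were 0.35, 0.05, 0.35 and 0.08, and none of these was called. Cebpd had 0.89 (limma adjusted p = 0.0374). The gap was negative for Hsph1, at -1.59 (limma adjusted p = 0.000164), and for Bag3, at -0.73 (limma adjusted p = 0.0142). Leaving out 1 array ended this call for Cebpb (3 arrays: BDC2.5/NOD replicate 1, at limma adjusted p = 0.0631, BDC2.5/NOD replicate 2, at limma adjusted p = 0.0826, and NOD replicate 1, at limma adjusted p = 0.0527). It ended it for Cebpd on leaving out BDC2.5/NOD.scid replicate 2, either BDC2.5/NOD array, NOD.scid replicate 2 or NOD replicate 1 (limma adjusted p = 0.107 to 0.188). For Rgs2 it did so for BDC2.5/NOD.scid replicate 1, either BDC2.5/NOD array, NOD.scid replicate 1 or NOD replicate 2 (limma adjusted p = 0.0729 to 0.149), and for Bag3 for BDC2.5/NOD replicate 1 (limma adjusted p = 0.0991) or NOD replicate 1 (limma adjusted p = 0.053).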

How the results depend on the processing

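No called difference of a gene of the set changed its sign under any alternative run, and no transgene difference of the set in NOD.scid did so. The same held for the called differences recomputed for 21 genes outside the set, each on its brightest probe set. Other probe sets of these genes were not part of the runs. Those of Zfp36l2 differed by 0.23 (93943_f_at) and 0.01 (93944_r_at) in NOD, where the called difference was -0.44. Uncalled differences of genes outside the set were not recomputed. Of the uncalled differences of the set, 22 recomputed values had the opposite sign, all where the reported size was 0.15 or less. For the set, 1126 of 1240 recomputed differences stayed within 1 SD between replicates and 114 moved further; for the genes outside it, 1007 of 1095 recomputed results kept their side of the threshold and 88 lost it. Probe sets called with the transgene in NOD.scid numbered 795, and 455 with only the groups compared, 432 at a threshold of 0.01, 1315 with a term for the actin control and 1418 without the 3 arrays of high actin control. In NOD they numbered 990, and 1521 with only the groups compared, 1568 with array weights, 419 at 0.01, 1507 with the actin term and 2179 without those arrays. For NOD.scid against NOD they numbered 292, and 143, 109 at 0.01, 739 and 1489 under the same alternatives except array weights. For BDC2.5/NOD.scid against BDC2.5/NOD they numbered 1037, and 484 at 0.01 and 2138 without the arrays of high actin control. For the interaction they numbered 586, and 229 at 0.01, 1042 with the actin term and 1621 without those arrays. Of the 10 genes, 1 was called with the transgene in NOD at 0.01 and 5 without those arrays, and 4 in the interaction at 0.01. The fit without the 3 arrays has 1 residual degree of freedom and assumes that lone arrays vary like the other groups.

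With each array left out in turn, 445 to 746 probe sets were called with the transgene in NOD.scid (445 without BDC2.5/NOD.scid replicate 2, 521 without NOD.scid replicate 1) and 8 to 9 of the 10 genes. In NOD they numbered 279 to 1139 (279 without BDC2.5/NOD replicate 1, 323 without replicate 2, 479 without NOD replicate 1), with 1 to 4 genes. For NOD.scid against NOD they numbered 71 to 352 (71 without NOD replicate 2, 97 without NOD.scid replicate 2, 128 without NOD replicate 1, 159 without either BDC2.5/NOD array), with 2 genes each time. For BDC2.5/NOD.scid against BDC2.5/NOD they numbered 329 to 1149 (329 without BDC2.5/NOD replicate 2, 370 without replicate 1, 635 without BDC2.5/NOD.scid replicate 2), with 3 to 7 genes. For the interaction they numbered 195 to 491 (195 without BDC2.5/NOD replicate 1, 214 without replicate 2, 346 without NOD replicate 1), with 4 to 5 genes. The causes of these shifts were not tested beyond fewer arrays or a stricter threshold. With the title number as a replicate block the counts were 647, 762, 195, 826 and 411 in the order used above. It is not known if the title numbers pair the arrays. The number of arrays limits every value.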
